A study of Mus musculus with 12 samples.

Results

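The collagen and laminin chain genes were described across 4 mouse embryonic fibroblast lines. They were taken by name, as probe sets whose single platform symbol is Col, a number, the letter a and a number, or Lama, Lamb or Lamc and a number. The naming rule used no measured value, but the set was chosen with earlier results of these data known. The rule gave 58 probe sets for 40 genes, 31 of collagen chains and 9 of laminin chains, out of 8251 genes with a probe set of 1 symbol. All 4 lines came from fibroblasts with the genotype KSR1-/- on the DBA background, so no line has its own KSR1, which holds Raf, MEK and ERK together so that the signal can pass between these kinases, and every line carried GFP. One line received KSR1 and H-RasV12, an oncogenic form of the GTPase H-Ras, with GFP. The others received KSR1 with GFP, H-RasV12 with GFP, or GFP alone. Each line was measured on 3 arrays, and nothing in the labels says that these came from separate cultures, so the p-values measure the spread between arrays of 1 line per condition, which may be technical. The promoter that drove the introduced genes is not given in the sources used here.

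Collagens are built from alpha chains that wind around one another into a rigid helix, and the type is set by which chains are joined. Fibrillar collagens such as types I, III and V make the cable-like fibrils that fibroblasts secrete into connective tissue, whereas type IV makes the sheet-like network of basement membranes. Laminins join an alpha, a beta and a gamma chain into a cross-shaped molecule that polymerises on the cell surface and, with nidogen and collagen IV, forms the basement membrane on which cells rest.

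The 2 main chains of collagen IV are transcribed from head-to-head genes, and the stretch between their starts is shown because both genes moved together below. The strand is plus and the build is GRCm38.p6, with the sequence from RefSeq. Capitals mark the 22 bases that lie inside the annotated 5′ ends of both transcripts, Col4a1 running leftward from chr8:11312826 and Col4a2 rightward from chr8:11312805.
Col4a1 and Col4a2 starts, chr8:11312801-11312830: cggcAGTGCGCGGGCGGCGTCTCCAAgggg

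The windows of the 3 collagen VI chain genes are shown because those chains, which assemble together, parted in the data. Each holds the 250 bases before an annotated start, from RefSeq on GRCm38.p6 and read along the gene's own strand, which is minus in all 3. Capitals mark the matches found on either strand of the letters TATAAA for the TATA box, of the CCAAT box, of GGGCGG for the GC box, of TGANTCA for the AP-1 site, bound by Fos and Jun factors that lie downstream of ERK, and of GGAATG for the TEAD site.
Col6a1, chr10:76726045-76726294: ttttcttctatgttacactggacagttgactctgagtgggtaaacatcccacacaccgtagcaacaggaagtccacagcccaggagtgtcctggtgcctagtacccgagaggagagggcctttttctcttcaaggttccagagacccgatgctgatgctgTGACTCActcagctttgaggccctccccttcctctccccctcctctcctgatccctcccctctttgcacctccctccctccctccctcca
Col6a2, outer of 2 annotated starts, chr10:76623631-76623880: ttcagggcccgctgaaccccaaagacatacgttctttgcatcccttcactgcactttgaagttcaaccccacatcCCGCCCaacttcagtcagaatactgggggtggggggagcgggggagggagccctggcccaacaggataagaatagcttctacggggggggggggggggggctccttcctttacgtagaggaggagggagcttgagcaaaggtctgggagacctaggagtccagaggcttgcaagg
Col6a3, chr1:90843972-90844221: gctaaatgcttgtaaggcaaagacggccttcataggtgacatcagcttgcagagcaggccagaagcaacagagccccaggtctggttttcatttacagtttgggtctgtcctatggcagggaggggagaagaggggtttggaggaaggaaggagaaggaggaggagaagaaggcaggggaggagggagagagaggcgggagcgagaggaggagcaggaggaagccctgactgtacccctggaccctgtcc
The Col6a1 window holds 1 AP-1 match, which begins at position -90 from the start and overlaps no other match. The Col6a2 window holds 1 GC box, on the opposite strand at position -175, while the window of its inner start, not printed, holds 3 GC boxes and 1 TEAD match. The Col6a3 window holds none of the 5 motifs. Of all 32851 windows of this length in the table, 6.75% hold the AP-1 motif, 32.7% the GC box, 33.8% CCAAT, 12.4% TATAAA and 12.6% the TEAD motif. Windows were found for 27 of the 40 member genes, 31 windows in all, and AP-1 matched 1 of them, TEAD 4, TATAAA 5, CCAAT 10 and the GC box 14. A match is a run of letters and says nothing on its own about binding. Along the chromosomes, Col6a1 and Col6a2 are neighbours on chromosome 10, where Col18a1 lies beyond 2 further genes, whereas Col6a3 stands apart on chromosome 1.

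The values below are MAS5 signals, a linear probe set intensity scaled by the authors to the same trimmed mean on every array. Of the 40 genes, 25 passed the filter, a signal over 181, the median value of the table, on 3 or more of the 12 arrays. Of these 25, 6 (Col11a1, Col4a5, Lama2, Lama5, Lamb2 and Col14a1) passed through some of the groups only. For Lama2 and Col14a1 these were the lines without KSR1. For Col11a1 and Lamb2 they were all but KSR1 + H-RasV12 cells and for Col4a5 all but KSR1 cells. For Lama5 they were the lines with KSR1 and a single GFP array. Calls that set these groups against the others are no separate support for the levels that let the genes pass. A gene was called where limma's adjusted p, over all 6897 tested probe sets, was under 0.05, and a fold change is a difference of log2(signal + 23), given with its standard error. The probe set that reports the re-expressed Ksr1 read 301, 262 and 141 in KSR1 + H-RasV12 cells, 933, 1605 and 207 in KSR1 cells, 20.2, 32.2 and 14.2 in H-RasV12 cells and 144, 21.1 and 37.5 in GFP cells, higher by 2.47 ± 0.61 in KSR1 + H-RasV12 than in H-RasV12 cells (limma adjusted p = 0.0155) and by 3.22 ± 0.61 in KSR1 than in GFP cells (limma adjusted p = 0.00397). The KSR1 + H-RasV12 and GFP arrays of this probe set overlapped. A second Ksr1 probe set read 294, 324 and 265 in KSR1 + H-RasV12 cells, 266, 366 and 216 in KSR1 cells, 188, 231 and 180.2 in H-RasV12 cells and 324, 225 and 232 in GFP cells. It was called in neither of these pairs. Where in the gene either probe set lies is not given in the sources used here. The replicate 1 arrays of the KSR1 + H-RasV12 and GFP lines stood apart, with an actin 3′ control of 8629 and 7981 against 16680 to 26873 on the other 10 arrays, and counts without all 4 replicate 1 arrays are therefore given too.

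The fibroblast label was checked against 7 markers, of which 6 had a probe set. Pdgfra, Fn1, S100a4 and Pdgfrb passed the filter. The signals summed over all 6, most of which came from S100a4, were 10923 to 16212 in KSR1 + H-RasV12 cells, 14558 to 19158 in KSR1 cells, 15858 to 22060 in H-RasV12 cells and 11870 to 17702 in GFP cells. Vim (29.6 to 128) and Thy1 (8.9 to 55.8), which fibroblasts normally carry, stayed below the filter in all 4 lines, so the label rests on the other 4. Pdgfrb, the receptor for platelet-derived growth factor B, averaged 32.9 in KSR1 + H-RasV12 cells, 185 in KSR1 cells, 301 in H-RasV12 cells and 449 in GFP cells; its part in these results was not tested. The other 3 tested fibroblast markers did not run in this order. Pdgfra averaged 1517 in KSR1 + H-RasV12 cells, 1963 in KSR1 cells, 1904 in H-RasV12 cells and 1433 in GFP cells. Fn1 averaged 1885 in KSR1 + H-RasV12 cells, 1741 in KSR1 cells, 2254 in H-RasV12 cells and 2131 in GFP cells. S100a4 averaged 9506 in KSR1 + H-RasV12 cells, 12787 in KSR1 cells, 13630 in H-RasV12 cells and 11434 in GFP cells. Of the markers of other cells, 1 of 6 leukocyte (Cd79a), 1 of 6 endothelial (Pecam1), 1 of 6 epithelial (Cdh1), 3 of 6 parietal endoderm (Gata4, Gata6, Thbd) and 1 of 3 Schwann cell genes (Sox10) passed, and no defining marker was listed at 0. Cdh1 read 411 to 994 and Sox10 241 to 447 over the 12 arrays, beside 7.06 to 541 for the fibroblast marker Pdgfrb. The parietal endoderm sum, relevant because those cells are rich in collagen IV and laminin, was 624 to 922 in KSR1 + H-RasV12 cells, 842 to 1465 in KSR1 cells, 1159 to 1240 in H-RasV12 cells and 964 to 1409 in GFP cells. In bulk RNA, fewer cells of a kind and less RNA per cell cannot be told apart.

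Re-expression of KSR1 went with lower signals for 13 of the 25 tested chains, from fibrillar, collagen IV, laminin alpha and collagen VI genes and Col14a1. In KSR1 against GFP cells these 13 were called lower and 3 others higher, beside 6.68% lower and 4.9% higher of all 5288 genes tested, and the median log2 fold change of the members was -1.26 beside 0.03 for all genes. These 13 include Lama2 and Col14a1, which passed the filter only through the lines without KSR1. Under a stricter filter, over the median on 6 or more arrays, neither was tested, and 11 members were called lower and 3 higher. No member was called in H-RasV12 against GFP cells, where limma called 0.0946% of all genes lower and 0.0189% higher, and the member median was -0.05 beside 0.02. The absence of calls is near the share over all genes and is no trait of the members. At an unadjusted p under 0.05, 3 of the 25 members passed in that comparison, Col5a1, Col5a2 and Col6a3, beside 5.62% of all genes.

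With H-RasV12 added to KSR1, Col4a1, Col4a2, Col6a3 and Col7a1 were called higher. Of the 6 tested fibrillar chains, Col1a1, Col5a2 and Col11a1 were called lower, and only the Col5a2 call held in every alternative. The other fibrillar chains were not called (0.41 for Col1a2, 0.21 for Col3a1 and 0.05 for Col5a1). Against KSR1 cells, 4 members were higher and 7 lower in KSR1 + H-RasV12 cells (8.4% and 6.79% of all genes), with a member median of -0.24 beside -0.06. Against H-RasV12 cells, 2 were higher and 10 lower (7.3% and 8.02% of all genes), with a median of -0.55 beside -0.05. Against GFP cells, 3 were higher and 12 lower (7.72% and 8.06%), with a median of -0.58 beside -0.02. The interaction, which sets the effect of adding H-RasV12 in cells with KSR1 against its effect in cells lacking it, was positive for 4 members and negative for 3 (4.05% and 3.46% of all genes). Several of these comparisons share arrays, so they are not independent of one another. Without the 4 replicate 1 arrays the counts, higher and lower, were 3 and 13 in KSR1 against GFP cells, 5 and 7 in KSR1 + H-RasV12 against KSR1 cells, 2 and 9 against H-RasV12 cells, 2 and 11 against GFP cells, and 5 and 2 for the interaction. Without KSR1 replicate 2, 7 members were called in KSR1 + H-RasV12 against KSR1 cells, against 11 with all arrays.

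**Figure D1:**
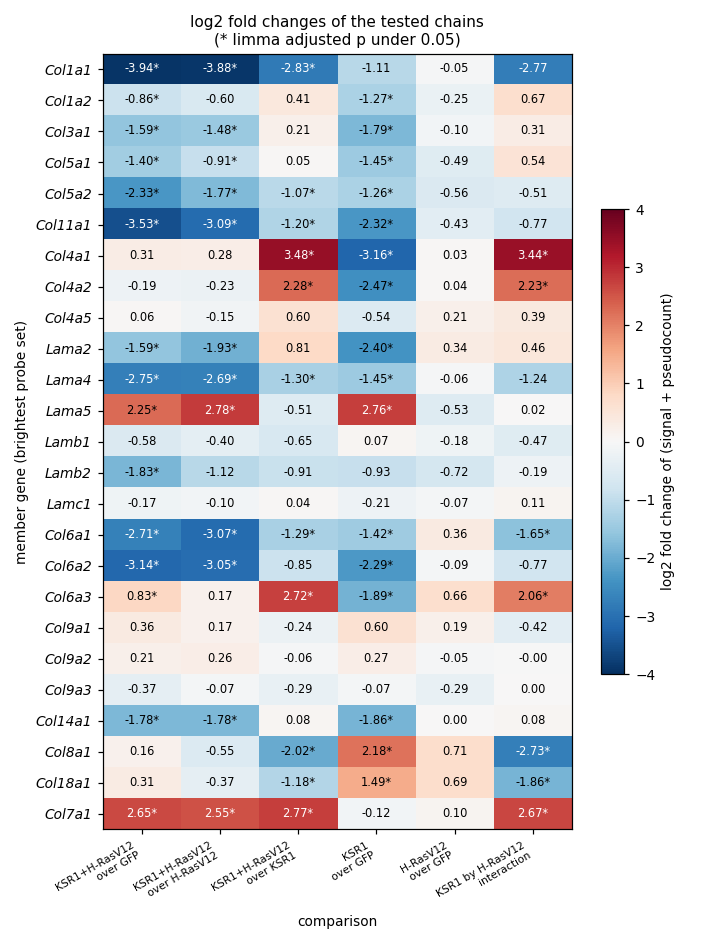
Log2 fold changes of the 25 tested member genes, with genes down the page by type and comparisons across; colour gives log2(signal + 23) differences and marked cells passed limma's adjusted p of 0.05. Most fibrillar chains were lower wherever KSR1 was present, and collagen IV was lower in KSR1 cells alone. No cell of H-RasV12 against GFP was called, where 0.0946% of all genes were called lower and 0.0189% higher.

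The fibrillar collagens were mostly lower in the lines that carried KSR1. Of 8 such genes on the array 6 were tested, and in KSR1 + H-RasV12 against GFP cells all 6 were called lower, with a median of -1.96. In KSR1 against GFP cells 5 of the 6 were called lower, in KSR1 + H-RasV12 against H-RasV12 cells 5, and in KSR1 + H-RasV12 against KSR1 cells 3. None was called for the interaction, although that of Col1a1, -2.77 ± 1.08 (limma adjusted p = 0.164), was called without KSR1 + H-RasV12 replicate 1 (-3.70, limma adjusted p = 0.0219). Col2a1 and Col11a2, chains of cartilage, lay below the filter.

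Col1a1, the more abundant chain of type I collagen, read 4299, 1921 and 178 in KSR1 + H-RasV12 cells, 7550, 9357 and 8475 in KSR1 cells, 17068, 14178 and 22324 in H-RasV12 cells, and 14039, 19577 and 21962 in GFP cells. All KSR1 + H-RasV12 arrays lay below all KSR1 arrays, which lay below the overlapping H-RasV12 and GFP arrays, yet the KSR1 + H-RasV12 arrays spread over the widest range as a ratio. The difference was -3.94 ± 0.77 (limma adjusted p = 0.00317) in KSR1 + H-RasV12 against GFP cells, -3.88 ± 0.77 (limma adjusted p = 0.00361) against H-RasV12 cells and -2.83 ± 0.77 (limma adjusted p = 0.0254) against KSR1 cells. The size of these called differences rested on single arrays. Without KSR1 + H-RasV12 replicate 3, the lowest array, they were -2.65, -2.60 and -1.54, while without replicate 1 of that line they were -4.87, -4.81 and -3.76, all still called. In KSR1 against GFP cells it was -1.11 ± 0.77 (limma adjusted p = 0.42) and not called. It was called there at 0.0143 with only the 2 groups fitted and at 0.0284 without KSR1 + H-RasV12 replicate 3. A second, dimmer Col1a1 probe set was also lower in KSR1 + H-RasV12 against H-RasV12 (-2.09) and GFP (-1.92) cells, but not called against KSR1 cells (-1.01 ± 0.47, limma adjusted p = 0.187). The call against KSR1 cells of the brighter one was lost at limma adjusted p of 0.061 with no filter, 0.0737 with only the 2 groups fitted and 0.0559, 0.0817 and 0.0602 without KSR1 replicates 1, 2 and 3 in turn.

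Col1a2, the other chain of type I collagen, read 8295, 8442 and 6001 in KSR1 + H-RasV12 cells, 5836, 5379 and 5636 in KSR1 cells, 11147, 10651 and 12417 in H-RasV12 cells, and 11841, 13131 and 16106 in GFP cells. Every array of the lines with KSR1 lay below every array of the lines without it, and KSR1 cells were the lowest. It fell by 1.27 ± 0.19 in KSR1 against GFP cells (limma adjusted p = 0.0006) and differed by -0.86 ± 0.19 (limma adjusted p = 0.00762) in KSR1 + H-RasV12 against GFP cells. Against H-RasV12 cells the difference was -0.60 ± 0.19 (limma adjusted p = 0.0506) and not called. It was called there at 0.0345 with a pseudocount of 100, 0.0486 with a stricter filter, 0.029 under quantile normalization, 0.0359 with an intensity trend in the spread and 0.0457 without KSR1 + H-RasV12 replicate 1. The call against GFP cells was lost at 0.0505 with only the 2 groups fitted. A second Col1a2 probe set, 1019 to 1920 over the 12 arrays, was called in no comparison. The within-array log2 ratio of Col1a1 to Col1a2 differed by -3.24 in KSR1 + H-RasV12 against KSR1 cells (-2.66 ± 2.03 against 0.58 ± 0.21, SD, n = 3 each), a description chosen after its values were seen. It used the brighter Col1a1 probe set, which read 178 on KSR1 + H-RasV12 replicate 3, where the second Col1a1 probe set read 457. That second probe set differed by only -1.01 between these lines and was not called, so the size of the ratio depends on the probe set.

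Col3a1, the type III chain of stretchable connective tissue, read 1905, 2423 and 1358 in KSR1 + H-RasV12 cells, 2037, 1943 and 1025 in KSR1 cells, 5219, 4488 and 5982 in H-RasV12 cells, and 7355, 4594 and 5145 in GFP cells. The lines with KSR1 overlapped each other and lay below the lines without it. The change was -1.79 ± 0.29 (limma adjusted p = 0.00125) in KSR1 against GFP cells, and -1.48 ± 0.29 (limma adjusted p = 0.0037) in KSR1 + H-RasV12 against H-RasV12 cells. Both further Col3a1 probe sets were called lower in the same pair of comparisons, at -3.00 and -1.51 in KSR1 against GFP cells.

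Type V collagen, which sets the diameter of type I fibrils, gave 2 members. Col5a1 read 808, 1178 and 755 in KSR1 + H-RasV12 cells, 834, 1043 and 744 in KSR1 cells, 1935, 1555 and 1655 in H-RasV12 cells, and 2003, 2952 and 2340 in GFP cells. Col5a2 read 2115, 1578 and 1499 in KSR1 + H-RasV12 cells, 3357, 3275 and 4325 in KSR1 cells, 5982, 4450 and 7601 in H-RasV12 cells, and 6806, 9461 and 10182 in GFP cells. For both genes each array with KSR1 lay below each array without it, and for Col5a2, but not Col5a1, the KSR1 + H-RasV12 arrays also lay below all KSR1 arrays. Col5a1 changed by -1.45 ± 0.22 (limma adjusted p = 0.000747) in KSR1 against GFP cells, by -1.40 ± 0.22 (limma adjusted p = 0.000736) in KSR1 + H-RasV12 against GFP cells and by -0.91 ± 0.22 (limma adjusted p = 0.0138) against H-RasV12 cells. This last call was lost at 0.0646 without H-RasV12 replicate 1, 0.0584 without KSR1 + H-RasV12 replicate 3 and 0.113 without all 4 replicate 1 arrays. Col5a2 changed by -1.26 ± 0.24 (limma adjusted p = 0.00414) in KSR1 against GFP cells, by -1.07 ± 0.24 (limma adjusted p = 0.0089) in KSR1 + H-RasV12 against KSR1 cells and by -2.33 ± 0.24 (limma adjusted p = 2.83e-05) against GFP cells. Col5a2 and Col3a1 are neighbours on chromosome 1, and any part of this in their levels was not tested.

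Col11a1, a minor fibrillar chain that starts fibril assembly, read 42.8, 119.5 and 56 in KSR1 + H-RasV12 cells, 224, 199.8 and 141 in KSR1 cells, 1186, 516 and 684 in H-RasV12 cells, and 623, 1373 and 1237 in GFP cells. The KSR1 + H-RasV12 arrays were the lowest, the KSR1 arrays next, and H-RasV12 and GFP arrays overlapped far above both. It changed by -3.53 ± 0.37 (limma adjusted p = 3.07e-05) in KSR1 + H-RasV12 against GFP cells, by -3.09 ± 0.37 (limma adjusted p = 9.47e-05) against H-RasV12 cells and by -2.32 ± 0.37 (limma adjusted p = 0.00106) in KSR1 against GFP cells. The difference between the lines with KSR1, -1.20 ± 0.37 (limma adjusted p = 0.0475), was lost in 14 of 22 alternatives. Among these were the analyses without KSR1 replicates 1, 2 and 3 (0.142, 0.135 and 0.053), KSR1 + H-RasV12 replicates 1 and 3 (0.131 each), GFP replicates 2 and 3 (0.0504 and 0.0574) and H-RasV12 replicate 3 (0.063).

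**Figure D2:**
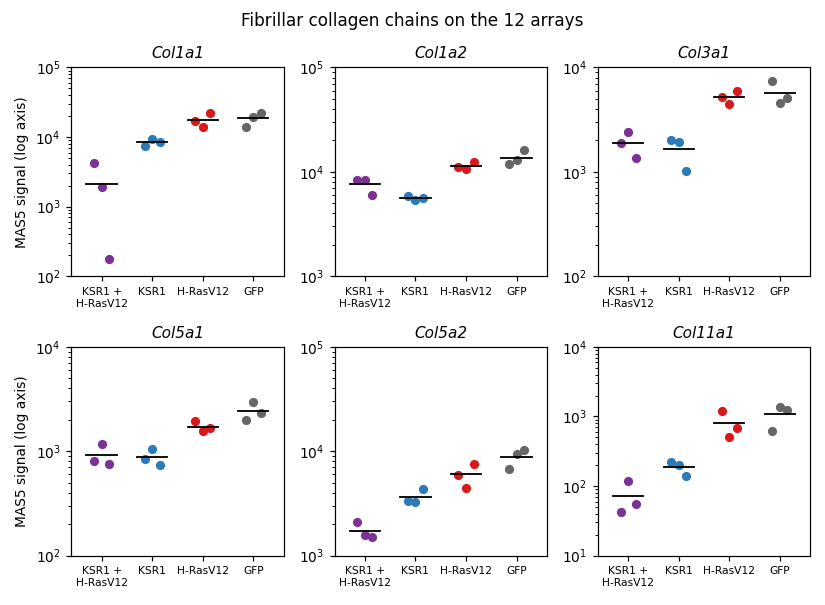
MAS5 signal of the 6 tested fibrillar collagen genes on each of the 12 arrays, on a log axis, with groups from KSR1 + H-RasV12 at the left to GFP at the right; points are arrays and bars group means. The 6 KSR1-carrying arrays sit below the 6 others for each gene shown, and Col1a1 has its widest spread on the log axis, 178 to 4299, in KSR1 + H-RasV12 cells.

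Collagen IV went another way from the fibrillar chains: both tested main chains were low in KSR1 cells and high again in KSR1 + H-RasV12 cells. Col4a1 read 1496, 2547 and 2043 in KSR1 + H-RasV12 cells, 245, 87.8 and 174 in KSR1 cells, 1626, 1428 and 1869 in H-RasV12 cells, and 1434, 1601 and 1757 in GFP cells. Col4a2 read 1494, 1589 and 1119 in KSR1 + H-RasV12 cells, 589, 185 and 169 in KSR1 cells, 1912, 1510 and 1497 in H-RasV12 cells, and 1479, 1500 and 1783 in GFP cells. For both chains the KSR1 arrays lay below all others, and the remaining 3 groups overlapped.

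In KSR1 cells Col4a1 averaged 169 ± 78.7 against 1597 ± 162 in GFP cells (SD, n = 3 each), 9.45-fold lower, with a log2 change of -3.16 ± 0.29 (limma adjusted p = 1.44e-05). Col4a2 averaged 315 ± 238 against 1587 ± 170.1, 5.04-fold lower, with a log2 change of -2.47 ± 0.35 (limma adjusted p = 0.000428). Adding H-RasV12 to KSR1 changed Col4a1 by 3.48 ± 0.29 (limma adjusted p = 7.51e-06) and Col4a2 by 2.28 ± 0.35 (limma adjusted p = 0.000685). Neither chain was called in KSR1 + H-RasV12 against H-RasV12 cells (0.28 ± 0.29, limma adjusted p = 0.626, for Col4a1 and -0.23 ± 0.35, limma adjusted p = 0.764, for Col4a2) or against GFP cells. H-RasV12 without KSR1 gave 0.03 ± 0.29 for Col4a1 and 0.04 ± 0.35 for Col4a2, so the interaction was 3.44 ± 0.41 (limma adjusted p = 0.000314) for Col4a1 and 2.23 ± 0.50 (limma adjusted p = 0.016) for Col4a2. These calls held in every alternative run. Without all 4 replicate 1 arrays Col4a2 changed by -3.05 in KSR1 against GFP cells and its interaction was 2.88. The 2 genes share the start region printed above, and its part in these changes was not tested.

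Of the minor collagen IV chains, Col4a5, which serves kidney, eye and ear membranes, read 113 to 349 over the 12 arrays and was called in no comparison. Its 3 KSR1 arrays, 181, 113 and 149.9, lay below the KSR1 + H-RasV12 arrays, 193, 322 and 200.3, a difference of 0.60 ± 0.24 (limma adjusted p = 0.131) that limma called at 0.0416 under quantile normalization. Col4a3 and Col4a4, the partners of Col4a5 in the adult glomerulus, lay below the filter.

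Among laminins the alpha chains moved in opposite directions, whereas the brightest probe sets of Lamb1 and Lamc1 were called in no comparison. Lama5, the alpha chain of laminins under many epithelia and vessels, read 693, 999 and 905 in KSR1 + H-RasV12 cells, 1239, 1425 and 1048 in KSR1 cells, 48.4, 129 and 169 in H-RasV12 cells, and 286, 97.3 and 146 in GFP cells. Both lines with KSR1 lay far above both lines without it, with KSR1 cells highest. This probe set passed the filter on the arrays with KSR1 and a single GFP array (286). Its calls are therefore no separate support for the higher level with KSR1. Lama5 changed by 2.76 ± 0.37 (limma adjusted p = 0.000288) in KSR1 against GFP cells, a ratio of means of 7.01, and by 2.78 ± 0.37 (limma adjusted p = 0.000224) in KSR1 + H-RasV12 against H-RasV12 cells. A second Lama5 probe set was called higher in both, by 1.15 and 0.78, but it passed the filter only on arrays of the lines with KSR1. In KSR1 + H-RasV12 against GFP cells its arrays overlapped and it was not called (0.35), whereas the brighter was (2.25, limma adjusted p = 0.000982). The 2 probe sets also parted in KSR1 + H-RasV12 against KSR1 cells, where the second was called lower (-0.80 ± 0.19, limma adjusted p = 0.0131) and the brighter was not called (-0.51 ± 0.37, limma adjusted p = 0.419).

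Lama4, the alpha chain of vessel, fat and mesenchymal laminins, read 257, 107 and 54.2 in KSR1 + H-RasV12 cells, 410.1, 321 and 259 in KSR1 cells, 1189, 650.0 and 907 in H-RasV12 cells, and 854, 849 and 1099 in GFP cells. Its order was KSR1 + H-RasV12, KSR1, then the overlapping H-RasV12 and GFP arrays. Lama4 changed by -2.75 ± 0.38 (limma adjusted p = 0.000234) in KSR1 + H-RasV12 against GFP cells and by -2.69 ± 0.38 (limma adjusted p = 0.000322) against H-RasV12 cells. The intermediate level in KSR1 cells was less secure. In KSR1 against GFP cells the change was -1.45 ± 0.38 (limma adjusted p = 0.0244), lost at 0.0562 with no filter, 0.0532 and 0.0973 without GFP replicates 2 and 3 in turn and 0.0764 and 0.0861 without KSR1 replicates 2 and 3 in turn. In KSR1 + H-RasV12 against KSR1 cells it was -1.30 ± 0.38 (limma adjusted p = 0.0361), lost at 0.0754 with no filter, 0.0825 with only the 2 groups fitted, 0.0502 without H-RasV12 replicate 3, 0.123 and 0.0965 without KSR1 replicates 1 and 2 in turn and 0.102 and 0.135 without KSR1 + H-RasV12 replicates 2 and 3 in turn. The Lama4 interaction, -1.24 ± 0.54 (limma adjusted p = 0.21), was called without KSR1 + H-RasV12 replicate 1 (-1.73, limma adjusted p = 0.0193). The within-array log2 ratio of Lama5 to Lama4 was 4.21 higher in KSR1 than in GFP cells and 5.47 higher in KSR1 + H-RasV12 than in H-RasV12 cells, a description chosen after its values were seen.

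Lama2, the alpha chain of muscle and nerve laminin, read 27.8, 57.2 and 84.4 in KSR1 + H-RasV12 cells, 26.1, 20.3 and 15.4 in KSR1 cells, 298, 224 and 283 in H-RasV12 cells, and 102, 276 and 295 in GFP cells. The lines with KSR1 lay below the lines without it, though 1 GFP array was close to the KSR1 + H-RasV12 arrays, and signals of this size are near the pseudocount, which shrinks the fold. Lama2 changed by -2.40 ± 0.34 (limma adjusted p = 0.000435) in KSR1 against GFP cells and by -1.93 ± 0.34 (limma adjusted p = 0.00172) in KSR1 + H-RasV12 against H-RasV12 cells. Lama2 passed the filter only through the lines without KSR1, so these calls are no separate support for its lower level with KSR1. Between the lines with KSR1 it was not called (0.81 ± 0.34, limma adjusted p = 0.146). It was called there without GFP replicate 1 (0.81, limma adjusted p = 0.049) and without all 4 replicate 1 arrays (1.19, limma adjusted p = 0.00841), where its interaction was called too (1.35, limma adjusted p = 0.0352). Lama1, of embryonic membranes, and Lama3, of epidermal anchorage, were below the filter.

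Lamb1 and Lamc1, the beta and gamma chains found in most laminins, read 282 to 833 and 451 to 1168 over the 12 arrays. For Lamb1 the 3 KSR1 + H-RasV12 arrays, 544, 282 and 513, lay below the KSR1 arrays, 646, 600.3 and 833, with a difference of -0.65 ± 0.25 (limma adjusted p = 0.107), and a second Lamb1 probe set was called lower there (-0.95 ± 0.26, limma adjusted p = 0.0275). Lamb2, the beta chain of nerve-muscle junction and kidney laminins, read 163, 177 and 123 in KSR1 + H-RasV12 cells, 603, 231 and 200.4 in KSR1 cells, 564, 210.3 and 379 in H-RasV12 cells, and 692, 537 and 586 in GFP cells. The KSR1 + H-RasV12 arrays were lowest, and the KSR1 and H-RasV12 arrays spread widely. Lamb2 was called at -1.83 ± 0.38 (limma adjusted p = 0.00483) in KSR1 + H-RasV12 against GFP cells. Against H-RasV12 cells it was not called (-1.12 ± 0.38, limma adjusted p = 0.069). It was called there at 0.026 without H-RasV12 replicate 2 and 0.022 without KSR1 replicate 1. In KSR1 against GFP cells it was not called (-0.93 ± 0.38, limma adjusted p = 0.149). It was called there without KSR1 replicate 1 (-1.39, limma adjusted p = 0.0178) and without all 4 replicate 1 arrays (-1.29, limma adjusted p = 0.0194).

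**Figure D3:**
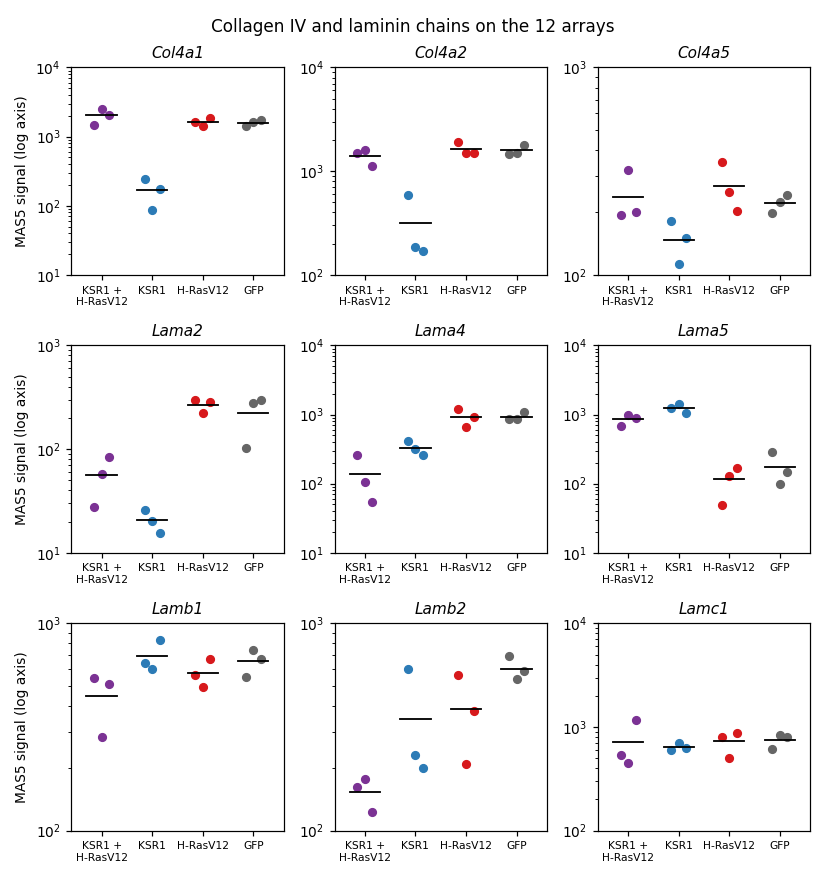
MAS5 signal of the tested collagen IV and laminin chain genes on each of the 12 arrays, on a log axis, with KSR1 + H-RasV12 at the left and GFP at the right; points are arrays and bars group means. Col4a1 and Col4a2 dip in KSR1 cells, Lama5 is high in both lines with KSR1, and Lama2 and Lama4 are low there.

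Collagen VI, which forms beaded microfilaments around cells, is assembled from Col6a1, Col6a2 and a longer chain such as Col6a3. All 3 tested chains were lower in KSR1 against GFP cells, but with H-RasV12 added Col6a3 was higher while Col6a1 was lower still. Col6a3 read 9059, 8331 and 6162 in KSR1 + H-RasV12 cells, 1434, 1017 and 1062 in KSR1 cells, 5754, 7620 and 7387 in H-RasV12 cells, and 4865, 5048 and 3328 in GFP cells. The KSR1 arrays lay below all others, and the KSR1 + H-RasV12 arrays lay above the GFP arrays and overlapped the H-RasV12 arrays.

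Col6a3 changed by -1.89 ± 0.23 (limma adjusted p = 0.000135) in KSR1 against GFP cells, by 2.72 ± 0.23 (limma adjusted p = 8.37e-06) in KSR1 + H-RasV12 against KSR1 cells, and by 2.06 ± 0.33 (limma adjusted p = 0.00222) for the interaction. Its smaller difference in KSR1 + H-RasV12 against GFP cells, 0.83 ± 0.23 (limma adjusted p = 0.0267), was lost at 0.0544 under quantile normalization, 0.0756 with only the 2 groups fitted, 0.129 without GFP replicate 3, 0.0746 and 0.0852 without KSR1 + H-RasV12 replicates 1 and 2 in turn and 0.0726 without all 4 replicate 1 arrays. In the same line Col6a1 read 695, 697 and 268, against 1438, 1314 and 1104 in KSR1 cells, 4336, 3968 and 5107 in H-RasV12 cells and 3258, 3097 and 4113 in GFP cells. Its arrays with KSR1 and H-RasV12 lay below those with KSR1, and these below the lines without KSR1.

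Col6a1 changed by -1.42 ± 0.30 (limma adjusted p = 0.00766) in KSR1 against GFP cells, by -1.29 ± 0.30 (limma adjusted p = 0.0112) in KSR1 + H-RasV12 against KSR1 cells and by -3.07 ± 0.30 (limma adjusted p = 2.07e-05) against H-RasV12 cells. A second Col6a1 probe set moved further the same way in all 3 (-2.27, -2.45 and -4.55, all called), with an interaction of -2.28 ± 0.56 (limma adjusted p = 0.0269). The interaction of the brighter one, -1.65 ± 0.43 (limma adjusted p = 0.0347), was lost at 0.0733 with no filter, 0.0606 and 0.0785 without GFP replicates 1 and 2 in turn, 0.0623, 0.0589 and 0.0841 without H-RasV12 replicates 1, 2 and 3 in turn, 0.0724 and 0.0784 without KSR1 replicates 1 and 2 in turn and 0.0752 without all 4 replicate 1 arrays. Col6a2 read 378, 195 and 108 in KSR1 + H-RasV12 cells, 408, 449 and 308 in KSR1 cells, 2001, 1687 and 1859 in H-RasV12 cells, and 2349, 1302 and 2462 in GFP cells. Both lines with KSR1 overlapped and lay below both lines without it, and Col6a2 changed by -2.29 ± 0.35 (limma adjusted p = 0.000749) in KSR1 against GFP cells and by -3.05 ± 0.35 (limma adjusted p = 6.6e-05) in KSR1 + H-RasV12 against H-RasV12 cells. Between the lines with KSR1 it was not called, at -0.85 ± 0.35 (limma adjusted p = 0.135). It was called there without KSR1 + H-RasV12 replicate 1 (-1.27, limma adjusted p = 0.0136) and without all 4 replicate 1 arrays (-1.23, limma adjusted p = 0.0456).

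The imbalance within collagen VI can be read from ratios taken within each array. The log2 ratio of Col6a3 to Col6a1 was 3.87 ± 0.47 in KSR1 + H-RasV12 cells against -0.14 ± 0.19 in KSR1 cells (SD, n = 3 each), a difference of 4.01 with no overlap. That of Col6a3 to Col6a2 differed by 3.57, also with no overlap. Ratios of probe sets show unequal change, not molar amounts, and these pairs were chosen after their values were seen and carry no test. Col6a3, the chain that was higher when H-RasV12 was added to KSR1, is the one on chromosome 1. Any part of gene position in these levels was not tested.

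Col7a1, the anchoring fibril chain that fastens the epidermal basement membrane to the dermis, was high in 1 line only. It read 1039, 2213 and 3337 in KSR1 + H-RasV12 cells, 269.7, 396 and 183 in KSR1 cells, 258, 357 and 350.2 in H-RasV12 cells, and 349, 362 and 203 in GFP cells. All 3 KSR1 + H-RasV12 arrays lay above every other array, and the other 3 groups overlapped. Col7a1 changed by 2.77 ± 0.38 (limma adjusted p = 0.000302) in KSR1 + H-RasV12 against KSR1 cells, by 2.55 ± 0.38 (limma adjusted p = 0.000494) against H-RasV12 cells and by 2.65 ± 0.38 (limma adjusted p = 0.000342) against GFP cells, with an interaction of 2.67 ± 0.54 (limma adjusted p = 0.00956). These calls held in every alternative run.

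Col8a1, a short-chain network collagen of vessel walls and the cornea, was high in KSR1 cells. It read 182, 273 and 400.2 in KSR1 + H-RasV12 cells, 1332, 1134 and 1077 in KSR1 cells, 354, 380.1 and 506 in H-RasV12 cells, and 112, 415 and 289 in GFP cells. The 3 KSR1 arrays lay above all others. Col8a1 changed by 2.18 ± 0.37 (limma adjusted p = 0.00166) in KSR1 against GFP cells, by -2.02 ± 0.37 (limma adjusted p = 0.00233) in KSR1 + H-RasV12 against KSR1 cells and by -2.73 ± 0.52 (limma adjusted p = 0.00689) for the interaction, each called in every alternative run, the last at -1.99 without all 4 replicate 1 arrays.

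Col18a1, the basement membrane multiplexin whose end fragment is endostatin, was also highest in KSR1 cells. It read 803, 643 and 277 in KSR1 + H-RasV12 cells, 976, 1748 and 1051 in KSR1 cells, 738, 747 and 591 in H-RasV12 cells, and 383, 462 and 413 in GFP cells. KSR1 arrays were highest and the GFP arrays lowest, apart from 1 KSR1 + H-RasV12 array. Col18a1 changed by 1.49 ± 0.33 (limma adjusted p = 0.00957) in KSR1 against GFP cells, lost at 0.052 without KSR1 replicate 2. In KSR1 + H-RasV12 against KSR1 cells it changed by -1.18 ± 0.33 (limma adjusted p = 0.0296), lost at 0.0617 with no filter, 0.0903 with only the 2 groups fitted, 0.135 without KSR1 replicate 2 and 0.0899 without KSR1 + H-RasV12 replicate 3, and the interaction was -1.86 ± 0.46 (limma adjusted p = 0.0282), lost at 0.0639 with no filter, 0.0508 and 0.0615 without GFP replicates 1 and 3 in turn, 0.0609 and 0.0719 without H-RasV12 replicates 1 and 2 in turn and 0.077 without KSR1 replicate 2. The other 3 tested and dimmer Col18a1 probe sets were called in the same directions in all of these comparisons, at 1.93 to 3.66 in KSR1 against GFP cells and -2.99 to -1.42 in KSR1 + H-RasV12 against KSR1 cells, larger than the brightest. All 3 passed the filter through the KSR1 arrays, where they were high, with at most 1 KSR1 + H-RasV12 array besides. They are therefore no separate support for the level in KSR1 cells.

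Of the fibril-associated collagens, which sit on fibril surfaces, Col14a1 read 36.7, 56.3 and 44.1 in KSR1 + H-RasV12 cells, 52.7, 55.9 and 21.8 in KSR1 cells, 199, 226 and 211 in H-RasV12 cells, and 507, 77.2 and 220.1 in GFP cells. Both lines with KSR1 were below both lines without it, and GFP replicate 1 stood well above its group. Col14a1 passed the filter only through the lines without KSR1, so its calls are no separate support for this lower level. Col14a1 changed by -1.86 ± 0.44 (limma adjusted p = 0.0147) in KSR1 against GFP cells, lost at 0.0614 with only the 2 groups fitted, 0.0524 without GFP replicate 3, 0.0628 without KSR1 replicate 3 and 0.0565 without all 4 replicate 1 arrays. It changed by -1.78 ± 0.44 (limma adjusted p = 0.0152) in KSR1 + H-RasV12 against H-RasV12 cells and by -1.78 ± 0.44 (limma adjusted p = 0.0148) against GFP cells, the last lost at 0.0589 with only the 2 groups fitted and 0.107 without all 4 replicate 1 arrays. Without GFP replicate 1 the differences from GFP cells were -1.19 in KSR1 + H-RasV12 and -1.28 in KSR1 cells, and without GFP replicate 2 -2.39 and -2.48. The type IX chains Col9a1, Col9a2 and Col9a3, of cartilage, read 70.4 to 429, 224 to 388 and 141 to 363 over the 12 arrays and were called in no comparison.

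**Figure D4:**
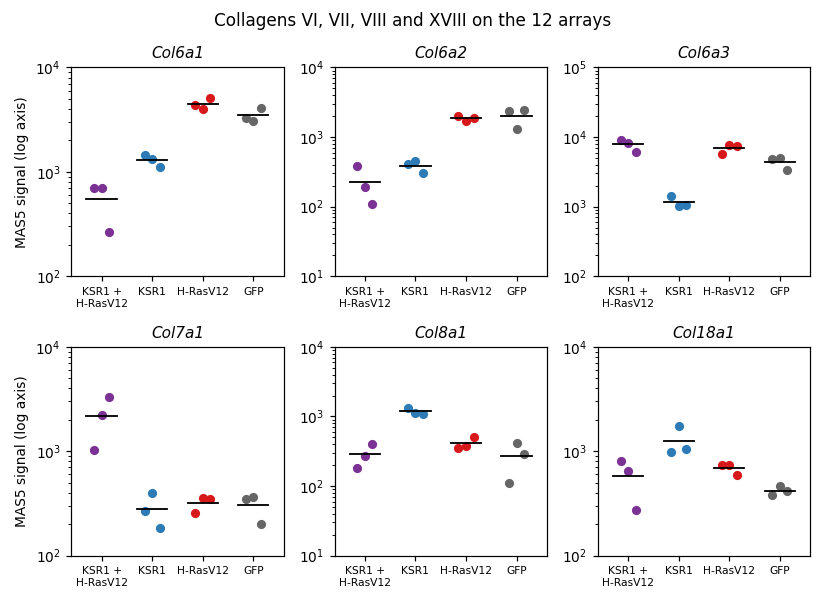
MAS5 signal of the tested collagen VI, VII, VIII and XVIII genes on each of the 12 arrays, on a log axis, with KSR1 + H-RasV12 at the left and GFP at the right; points are arrays and bars group means. Col7a1 is high in KSR1 + H-RasV12 cells and Col8a1 in KSR1 cells, and Col6a3 separates from Col6a1 and Col6a2 in KSR1 + H-RasV12 cells.

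The other 15 member genes stayed below the filter, with signals of 3.72 to 277.8 over all arrays. Beside those named above they were Lamb3 of epidermal laminin, the fibril-associated Col12a1, Col19a1 and Col22a1, the cartilage network chain Col10a1, the multiplexin Col15a1, the transmembrane Col13a1 and Col17a1, and Col26a1. Col26a1 had the highest value among them and Col22a1 the lowest. Of the 58 member probe sets 36 were tested and 22 lay below the filter.

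Genes that process collagen were examined next, from lists drawn up with earlier results of these data known. Of the listed genes, 6 (P3h3, Loxl1, Nid1, Nid2, Itga6 and Itga7) passed the filter through some of the groups only. For P3h3 and Loxl1 these were all but KSR1 + H-RasV12 cells. Nid2 passed through the lines without KSR1, and Itga6 through KSR1 and H-RasV12 cells. Calls that set these groups against the others are no separate support for the levels that let the genes pass. Of 14 tested processing genes, none was higher and 4 were lower in KSR1 against GFP cells (median -0.56 beside 0.03 for all genes). There 4.9% of all genes were higher and 6.68% lower. In KSR1 + H-RasV12 against KSR1 cells 2 were higher and 2 lower (8.4% and 6.79% of all genes). Against H-RasV12 cells none was higher and 4 lower (7.3% and 8.02%), and against GFP cells none higher and 5 lower (7.72% and 8.06%). No gene of this or the other lists was called in H-RasV12 against GFP cells (0.0189% higher and 0.0946% lower of all genes). P3h3, a collagen prolyl 3-hydroxylase, read 147, 163 and 109 in KSR1 + H-RasV12 cells, 261, 299 and 202 in KSR1 cells, 889, 607 and 735 in H-RasV12 cells, and 1084, 816 and 932 in GFP cells. P3h3 arrays with KSR1 lay below those without it, and it changed by -1.81 ± 0.22 (limma adjusted p = 0.000109) in KSR1 against GFP cells and by -2.23 ± 0.22 (limma adjusted p = 1.92e-05) in KSR1 + H-RasV12 against H-RasV12 cells. Lox, the lysyl oxidase that cross-links collagen, read 1729, 4724 and 4872 in KSR1 + H-RasV12 cells, 2478, 2988 and 2910 in KSR1 cells, 5690, 2508 and 3579 in H-RasV12 cells, and 7103, 9587 and 9515 in GFP cells. Its KSR1 arrays lay below the GFP arrays and overlapped the other 2 groups, with a change of -1.63 ± 0.37 (limma adjusted p = 0.0116) in KSR1 against GFP cells.

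Pcolce and P4ha2 were both called higher when H-RasV12 was added to KSR1. Pcolce, the enhancer of procollagen C-proteinase, changed by -1.19 ± 0.31 (limma adjusted p = 0.0256) in KSR1 against GFP cells and by 1.34 ± 0.31 (limma adjusted p = 0.0112) in KSR1 + H-RasV12 against KSR1 cells. P4ha2, a prolyl 4-hydroxylase subunit, changed by 1.22 ± 0.30 (limma adjusted p = 0.0156) in the same comparison. The Pcolce call in KSR1 against GFP cells was lost at 0.0556 with no filter, 0.0717 and 0.0745 without GFP replicates 1 and 3 in turn and 0.103 without KSR1 replicate 3, and its call in KSR1 + H-RasV12 against KSR1 cells at 0.0503 without KSR1 replicate 3. The P4ha2 call was lost at 0.0634 without KSR1 replicate 3 and 0.061 without KSR1 + H-RasV12 replicate 2. Loxl1, a related oxidase, changed by -1.02 ± 0.21 (limma adjusted p = 0.00566) in KSR1 + H-RasV12 against KSR1 cells.

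Of 6 tested basement membrane partners, 1 was lower in KSR1 against GFP cells (list median -0.34, 6.68% of all genes lower) and 2 in KSR1 + H-RasV12 against GFP cells (8.06% of all genes lower). Nid2, a nidogen that links laminin to collagen IV, read 1.6, 2.21 and 19.2 in KSR1 + H-RasV12 cells, 83.8, 2.16 and 10.4 in KSR1 cells, 858, 245 and 517 in H-RasV12 cells, and 375, 822 and 1026 in GFP cells. The lines with KSR1 were far below the lines without it, at signals so near 0 that the size of the change depends on the pseudocount. The changes were -3.98 ± 0.55 (limma adjusted p = 0.000309) in KSR1 against GFP cells and -4.57 ± 0.55 (limma adjusted p = 7.78e-05) in KSR1 + H-RasV12 against GFP cells, the first at -4.61 without KSR1 replicate 1. The 3 tested collagen receptors, of 7 listed, were called in none of the 6 comparisons (list median -0.13 in KSR1 against GFP cells). From 0.0189% to 8.4% of all genes were called per direction in these comparisons, so none of 3 is near that share. Of 3 tested laminin receptors 2 were higher in KSR1 against GFP cells (list median 1.93, 4.9% of all genes higher) and lower in KSR1 + H-RasV12 against KSR1 cells (list median -1.47, 6.79% of all genes lower). Itga3, the integrin alpha chain for laminins with Lama3 or Lama5, read 234, 258 and 186 in KSR1 + H-RasV12 cells, 824, 1283 and 506 in KSR1 cells, 193, 256 and 209 in H-RasV12 cells, and 251, 195 and 153 in GFP cells. Itga6, a further laminin-binding integrin chain, read 161, 158 and 132 in KSR1 + H-RasV12 cells, 514, 316 and 578 in KSR1 cells, 154, 415 and 373 in H-RasV12 cells, and 94.6, 99.6 and 109.8 in GFP cells. Itga3 was highest on the 3 KSR1 arrays, and Itga6 was higher on KSR1 than on KSR1 + H-RasV12 or GFP arrays but overlapped H-RasV12 arrays. Itga3 changed by 1.93 ± 0.29 (limma adjusted p = 0.000613) and Itga6 by 1.95 ± 0.31 (limma adjusted p = 0.00101) in KSR1 against GFP cells, and by -1.76 ± 0.29 (limma adjusted p = 0.00113) and -1.47 ± 0.31 (limma adjusted p = 0.00616) in KSR1 + H-RasV12 against KSR1 cells. The Itga3 calls in these 2 comparisons held in every alternative run, and the Itga6 calls in each one in which it was tested, since Itga6 dropped out under the stricter filter.

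**Figure D5:**
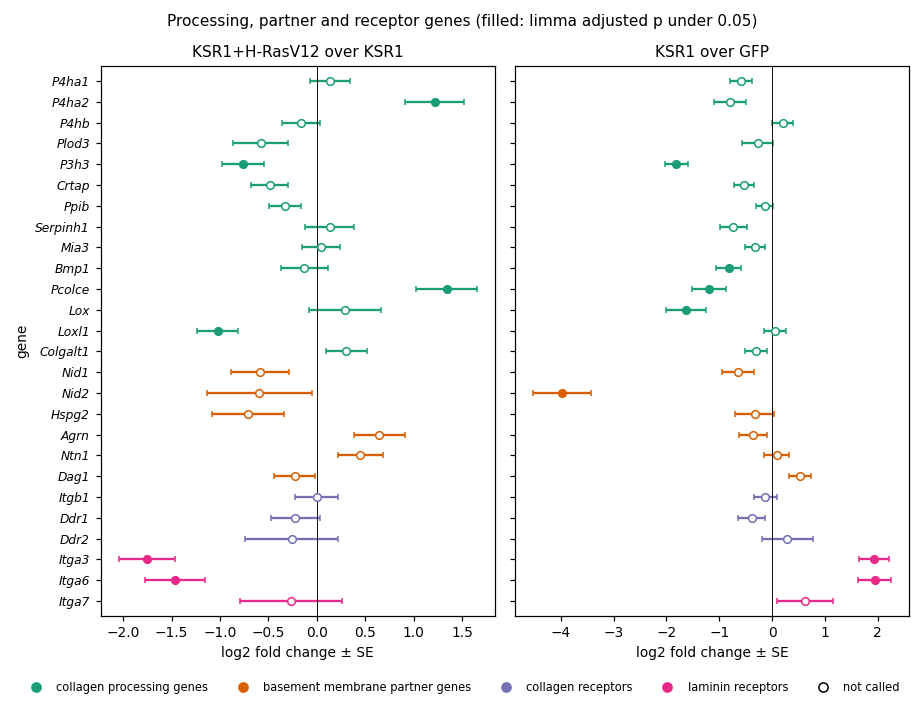
Log2 fold changes, with standard error bars, of the tested collagen processing, basement membrane partner and receptor genes (down the page, coloured by list) in KSR1 + H-RasV12 against KSR1 cells (left) and KSR1 against GFP cells (right); filled points passed limma's adjusted p of 0.05. Nid2 lies far below 0 in KSR1 against GFP cells, and Itga3 and Itga6 lie above 0 there and below 0 in the left panel.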

How the data were processed

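Total RNA of 12 samples, 3 for each of 4 lines, was made into biotin-labelled cRNA for Affymetrix mouse arrays, per the protocols in the labels. The deposited values are probe set intensities on a linear scale made with MAS5, per the submitters' processing notes, and the MAS5 version is not given in the sources used here. Their trimmed mean was the same on every array, 500.3, so a level is relative to the rest of its array, and the number of arrays limits the precision. Of 12422 probe sets other than controls, 10833 had 1 gene symbol in the platform annotation, 396 several and 1193 none. Symbols were updated by gene identifier for 10817.

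Signals were analysed as log2(signal + 23) with limma 3.58.1 in R 4.3.3, as 4 group means with 8 residual degrees of freedom, two-sided, and adjusted by Benjamini-Hochberg over 6897 tested probe sets at 0.05. Each gene is given by its probe set with the highest mean over all arrays. Per-array values are printed for members called in at least 1 comparison, and from the related lists up to 3 called genes with the largest change per comparison were eligible to be named. The members and lists were chosen with earlier results of these data known. The calculation was tested on simulated data. Alternatives changed the pseudocount, the filter, the normalization, the samples in the model, an intensity trend in the spread, a replicate block, the probe sets counted and the arrays used. Promoter windows came from RefSeq on GRCm38.p6. No protein sequences were used here.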

Additional observations from a re-analysis of the deposited data

Results flagged for a closer look

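For 7 of the 25 tested members the response to H-RasV12 differed by whether KSR1 was present, by a test of the difference itself, which is the change in KSR1 + H-RasV12 against KSR1 cells minus the change in H-RasV12 against GFP cells on the log2 scale. It was positive for Col4a1 at 3.44 ± 0.41 (limma adjusted p = 0.000314), Col7a1 at 2.67 ± 0.54 (limma adjusted p = 0.00956), Col4a2 at 2.23 ± 0.50 (limma adjusted p = 0.016) and Col6a3 at 2.06 ± 0.33 (limma adjusted p = 0.00222). It was negative for Col8a1 at -2.73 ± 0.52 (limma adjusted p = 0.00689), Col18a1 at -1.86 ± 0.46 (limma adjusted p = 0.0282) and Col6a1 at -1.65 ± 0.43 (limma adjusted p = 0.0347). For Col8a1 the parts were -2.02 ± 0.37 with KSR1 and 0.71 ± 0.37 without it, and for Col18a1 they were -1.18 ± 0.33 and 0.69 ± 0.33. The calls of Col4a1, Col4a2, Col6a3, Col7a1 and Col8a1 held in all 21 alternatives, while that of Col6a1 was lost in 9 and that of Col18a1 in 6. The share over all genes was 4.05% positive and 3.46% negative.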

How the results depend on the processing

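Of 61 called pairs of a member and a comparison, 48 kept the call in every alternative in which they were tested. The call was lost in at least 1 alternative for 13 and reversed for 0. Lama2 and Col14a1 were not tested under the stricter filter. The counts under it, higher and lower, were 3 and 11 in KSR1 against GFP cells. They were 2 and 9 in KSR1 + H-RasV12 against H-RasV12 cells and 3 and 10 against GFP cells. Among 89 uncalled pairs, 10 were called in at least 1 alternative. In KSR1 + H-RasV12 against KSR1 cells, 11 members were called, against 7 with no filter on low values and 17 probe sets with all member probe sets counted; for the interaction, 7 became 11 with all probe sets counted. Leaving out each array in turn gave 14 to 17 members in KSR1 against GFP cells, 7 to 12 in KSR1 + H-RasV12 against KSR1 cells (the lowest without KSR1 replicate 2), 11 to 13 against H-RasV12 cells, 14 to 15 against GFP cells, 5 to 9 for the interaction and 0 each time in H-RasV12 against GFP cells. Where this left 2 arrays in a group, the spread was pooled over all groups. The cause of these changes was not tested.

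For the related lists, 5 genes were called in KSR1 + H-RasV12 against H-RasV12 cells, against 10 without the 4 replicate 1 arrays and 5 to 8 leaving out single arrays (8 without KSR1 + H-RasV12 replicate 1). Without the 4 replicate 1 arrays, 11 were called against GFP cells (7 with all arrays, 5 to 9 leaving out single arrays) and 3 in H-RasV12 against GFP cells (0 with all, 0 to 1 leaving out single arrays, 1 without GFP or H-RasV12 replicate 1). In KSR1 + H-RasV12 against KSR1 cells 6 were called (4 to 10 leaving out single arrays, 10 without KSR1 + H-RasV12 replicate 1), in KSR1 against GFP cells 7 (5 to 8), and for the interaction 5, against 3 with no filter and 2 to 5 leaving out single arrays (2 without H-RasV12 replicate 1 or 3, and 3 without GFP replicate 3, KSR1 replicate 2 or 3, or KSR1 + H-RasV12 replicate 2).

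Samples that share a replicate number were not treated as paired in the main fit, because not every correlation of deviations among them was over 0.1. Over 0.1 were 4 of 6 among arrays numbered 1, 4 of 6 among those numbered 2 and 5 of 6 among those numbered 3. Among arrays with different numbers 6 of 36 were (-0.44 to 0.24), and 10 of 12 arrays correlated best with their own number. Arrays of the same number thus tended to deviate together, which the main fit ignores. With the replicate number as a block, the members called were 16 in KSR1 against GFP cells, 10 in KSR1 + H-RasV12 against KSR1 cells, 13 against H-RasV12 cells, 15 against GFP cells, 7 for the interaction and 0 in H-RasV12 against GFP cells. Related genes called against H-RasV12 cells were 8, against 5 in the main fit. Lamb2 was gained against H-RasV12 cells (limma adjusted p = 0.0224), and Col11a1 was lost against KSR1 cells (limma adjusted p = 0.0508).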
